A study of Mus musculus with 10 samples.

Results

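Genes for proteins of the mitochondrial ribosome and of the mitochondrial import channels were followed, at the level of RNA, on arrays whose titles say brain. They were chosen by name: every probe with a single gene symbol that begins with Mrpl or Mrps and a digit, or with Timm or Tomm and a digit. This rule used no measured value, though it was chosen with earlier results of these data known. It found 105 probes of 80 genes, among 14030 probes with a single symbol, for 9930 genes, on an array of 20355 probes. Classes follow the symbol alone. Mrpl names, called the large ribosomal subunit here, gave 40 genes and Mrps names, called the small subunit, gave 24. Genes named for translocases of the outer (Tomm) and inner (Timm) membrane gave 16. Whether each protein belongs to the complex its name gives was not checked.

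The study compared brains of Cin85-/- mice with wildtype brain on two-colour arrays, which report the ratio of a pair of dye-labelled samples at each probe. The mutant group held 5 male mice aged 15 weeks, all labelled Cin85-/-. Cin85 is the adaptor protein encoded by Sh3kbp1 that links receptors to the endocytic machinery. Each mouse was placed on 2 arrays, carrying Cy5 on the first and Cy3 on the second, and the other channel always held RNA pooled from wildtype brains. The pool held 5 mice by the series design, and the labelling protocol states another number. The labels used here give the genotype but no background strain and no description of the disrupted allele. Titles and the pool's label say brain, but the mutant RNA's own label reads Kdn, which nothing in the labels explains, so the tissue of the mutant RNA rests on the titles. Kidney markers are therefore listed below beside those of brain cells. The pool is 1 control sample, so no test here includes the spread between wildtype mice. Mice are numbered 1 to 5 in the order of their arrays.

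The mitochondrial ribosome translates the few messenger RNAs encoded by mitochondrial DNA, which specify core subunits of the respiratory chain and the ATP synthase. All of its proteins are encoded in the nucleus, made in the cytosol and imported. The TOM complex is the entry gate of the outer membrane, TIM23 passes proteins with a cleavable presequence to the matrix, TIM22 inserts carrier proteins into the inner membrane, and small Timm chaperones escort those carriers between the membranes. Neurons depend heavily on respiration, and human disorders of the mitochondrial ribosome often affect the brain.

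Promoters of nuclear genes for mitochondrial proteins often carry sites for NRF1, for ETS factors such as GABP, and for YY1. Windows from 250 bases before to 50 bases after the gene start were taken from RefSeq on GRCm38.p6 for 72 of the 80 genes and searched on both strands. The letters searched were GCGCANGCG for NRF1, CCGGAAG for ETS factors and AAGATGGCG for YY1, and matches of different motifs may overlap. At least 1 of them was present in 44 of 72 windows (61.1%), against 28.5% of the windows of all genes on the array. The ETS letters were in 28 windows (38.9%, against 16.4% on the array), the NRF1 letters in 15 (20.8%, against 12.7%) and the YY1 letters in 9 (12.5%, against 3.01%). A match is a description of letters and not a site of binding. The windows shown belong, in each of the 3 classes, to the gene with the smallest p described below whose window held a match. They are Mrpl44 at chr1:79775768-79776067 on the plus strand (NRF1), Mrps27 at chr13:99344536-99344835 on the plus strand (ETS and YY1) and Tomm34 at chr2:164071120-164071419 on the minus strand (ETS). Capitals mark the matched letters, on either strand.
Mrpl44: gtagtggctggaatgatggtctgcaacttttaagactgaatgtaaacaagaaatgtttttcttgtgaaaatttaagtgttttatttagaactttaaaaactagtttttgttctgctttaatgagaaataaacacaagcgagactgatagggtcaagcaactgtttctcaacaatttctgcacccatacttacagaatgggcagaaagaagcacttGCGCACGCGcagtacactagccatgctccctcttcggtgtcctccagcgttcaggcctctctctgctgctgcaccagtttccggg
Mrps27: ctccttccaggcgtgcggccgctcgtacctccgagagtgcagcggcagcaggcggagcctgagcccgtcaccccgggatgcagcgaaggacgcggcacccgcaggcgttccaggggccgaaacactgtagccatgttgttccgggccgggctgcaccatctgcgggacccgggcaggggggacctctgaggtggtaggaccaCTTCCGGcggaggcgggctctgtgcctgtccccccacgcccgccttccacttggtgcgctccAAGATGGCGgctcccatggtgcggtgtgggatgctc
Tomm34: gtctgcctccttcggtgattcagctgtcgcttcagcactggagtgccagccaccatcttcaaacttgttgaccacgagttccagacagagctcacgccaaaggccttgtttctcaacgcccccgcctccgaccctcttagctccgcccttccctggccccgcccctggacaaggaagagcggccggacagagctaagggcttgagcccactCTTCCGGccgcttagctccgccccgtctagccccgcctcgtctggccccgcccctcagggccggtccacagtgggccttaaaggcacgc

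The deposited values are log2 ratios, and the sources used here state neither the numerator nor whether the swapped arrays were flipped before deposit. Signs below are those of the deposited scale and do not say which sample was higher. For each mouse the mean of its 2 arrays, each centred on its median, is called the pair mean. The dye term is the Cy5-mutant array minus the Cy3-mutant array, divided by 2. The pair mean measures mutant against pool if the swapped arrays were flipped, and the dye term does so if every column is Cy5 over Cy3. The remaining quantity then holds dye bias. A ratio carries no level, so the presence of brain markers or of the member transcripts could not be checked.

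Arrays held 16816 to 19424 values each. The sign of the correlation followed the dye over all probes on 9 of the 10 arrays, and over member probes with 1 exception among their pairs, -0.03 between the Cy5-mutant arrays of mice 1 and 5. Member probes had Spearman's rho from -0.03 to 0.59 (median 0.31) over the 16 pairs of arrays with the same dye orientation, and from -0.56 to -0.01 (median -0.24) over the 20 pairs with opposite orientation. Over all probes the medians were 0.34 and -0.30. The array of mouse 3 with the mutant in Cy3 stood apart. Its rho with the other arrays lay between -0.12 and 0.17 for member probes, and it lacked 14 member probes where the others lacked 3 to 11. Its median absolute deviation was 0.869 over member probes, against 0.233 to 0.757 elsewhere. Its part in the results below was not tested apart from leaving it or mouse 3 out. Sh3kbp1, the targeted gene, gave 0.0082 ± 0.139 as its pair mean and 0.115 ± 0.0888 as its dye term (SD, n = 5 each), with adjusted p values of 0.989 and 0.426 by limma. It is read by a probe whose place in the transcript is unknown here.

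**Figure D1:**
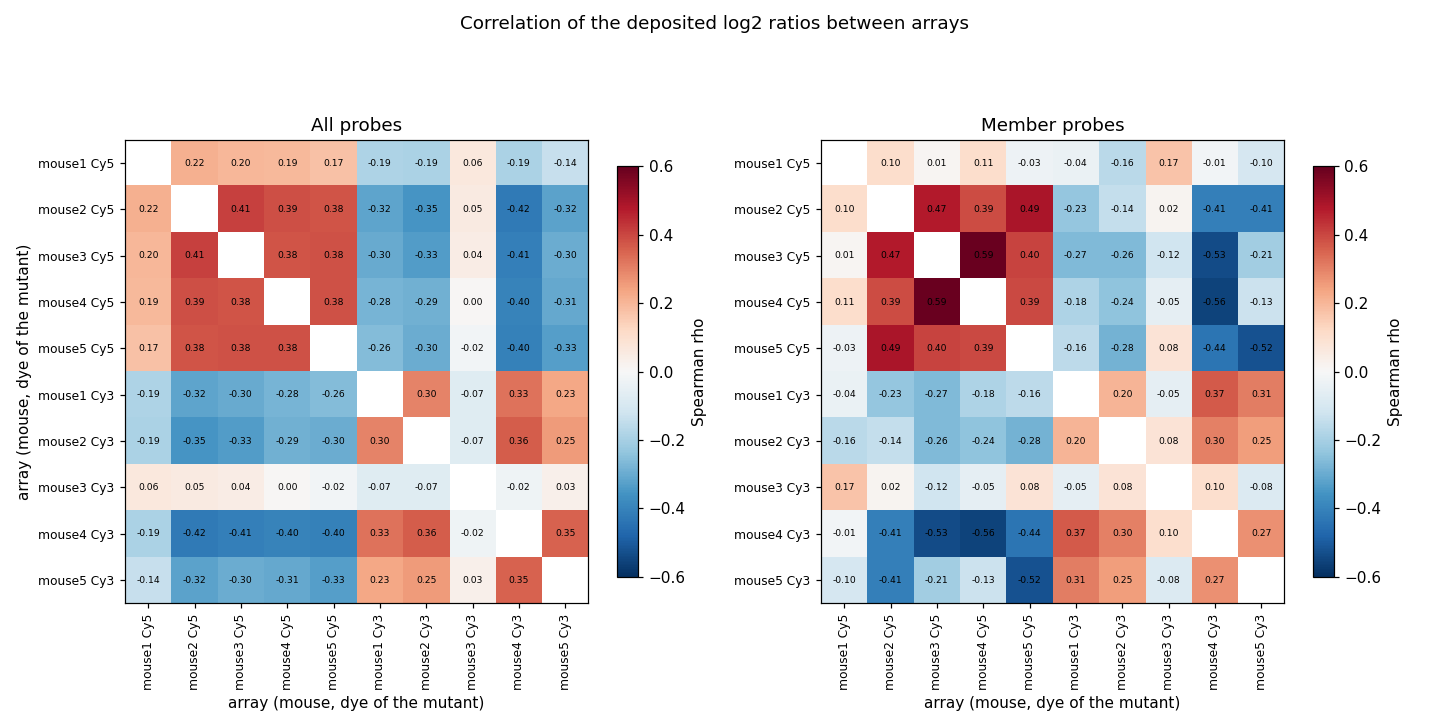
Spearman's rho between the deposited log2 ratios of each pair of arrays, over all probes (left) and over the member probes (right). Arrays are ordered by the dye of the mutant and then by mouse. Arrays of the same orientation correlate positively and those of opposite orientation negatively, with 2 exceptions. The array of mouse 3 with the mutant in Cy3 lies between -0.12 and 0.17 for member probes, and the Cy5-mutant arrays of mice 1 and 5 give -0.03 there.

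A probe was tested where both arrays of at least 4 mice held a value. This left 93 of 105 member probes and 74 of 80 genes, and probes of a gene were averaged. Over all genes, 8711 were tested. By the pair mean, 0 of 74 member genes had an adjusted p below 0.05 by limma, and the same was true of 0% of all genes tested. The smallest adjusted p of a member was 0.918 by limma. At an unadjusted p below 0.05 there were 3 members (4.05%), against 3.52% of all genes. They were Mrpl44 and Mrps27 with positive ratios (1.86% of all genes were positive and below 0.05) and Mrpl35 with a negative ratio (1.66% of all genes). Pair means had the same sign in all 5 mice for 8 of the 63 members measured in all 5 (12.7%), against 6.86% of all genes. Of these 8 genes, 4 were positive and 4 negative, against 3.31% and 3.55% of all genes.

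The pair means of the members lay near 0, as far as the spread over mice allows. They compare mutant with pool only if the swapped arrays were flipped before deposit. Positive values were found for 40 of the 74 tested genes and negative values for 34 (49.4% and 50.6% over all genes). The median was 0.02, against -0.003 over all genes. For 54 of them (73%) the 95% interval of the pair mean lay inside 1.5-fold in either direction, against 65.6% of all genes. For 68 (91.9%) it lay inside 2-fold, against 88.5%. The SD over mice had a median of 0.283 among members and 0.315 among all genes.

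**Figure D2:**
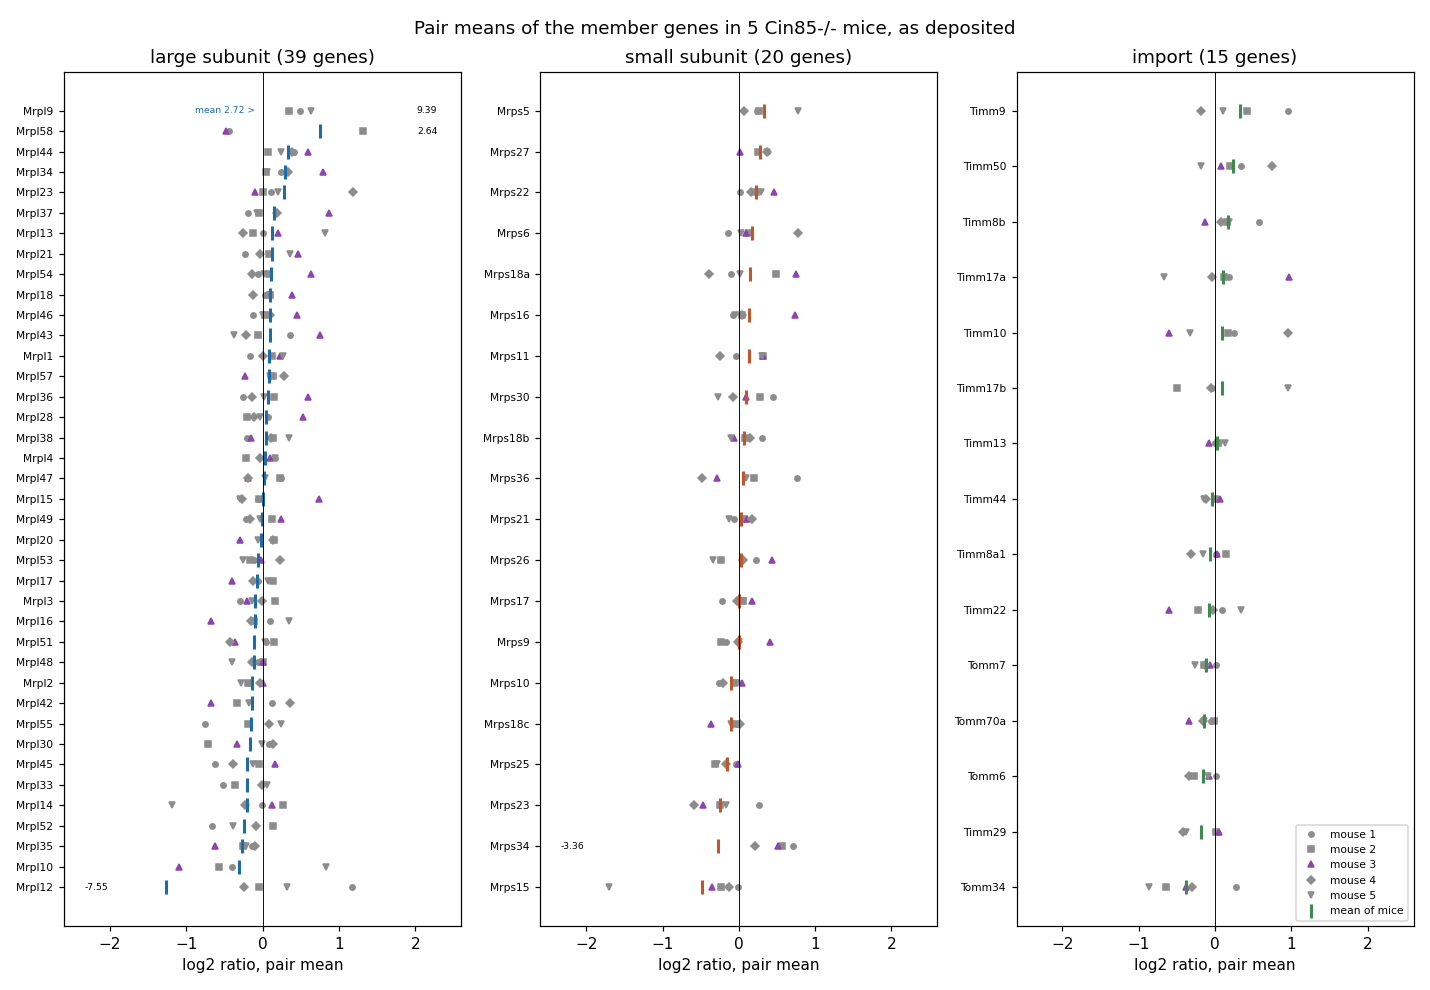
Pair mean of the log2 ratio in each of the 5 mice for the 74 tested member genes, by class, sorted by the mean over mice (coloured bar). The horizontal axis is the log2 ratio as deposited. Mouse 3, which carries the array that stood apart, is purple, and values beyond 2 in size are written at the edge. Most genes scatter across 0, and the medians of the classes are 0.01, 0.04 and -0.04.

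In the large subunit the median over 39 tested genes was 0.01 (20 positive, 19 negative), and 0 had an adjusted p below 0.05. Mrpl44, which has a ribonuclease III-like fold and sits near the exit of the peptide tunnel, had the smallest p. Its arrays with the mutant in Cy5 read -0.19, -0.10, 0.24, 0.41 and -0.27 in mice 1 to 5, and those with it in Cy3 read 1.01, 0.24, 0.94, 0.35 and 0.75. All of the second set were positive, while the first set had both signs. The pair means were 0.41, 0.07, 0.59, 0.38 and 0.24, above 0 in 5 of 5 mice. Their mean was 0.34 ± 0.20 (SD, n = 5; adjusted p 0.918 by limma), with a 95% interval from 0.09 to 0.59.

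Mrpl35, a homologue of bacterial ribosomal protein L35, had pair means of -0.14, -0.25, -0.62, -0.09 and -0.22. All 5 mice were negative, with mouse 3 the lowest. The mean was -0.27 ± 0.21 (SD, n = 5; adjusted p 0.918 by limma), and without mouse 3 it was -0.18. Mrpl34, a homologue of bacterial L34, is read by 2 probes, with means of 0.46 and 0.12. Its gene-level pair means were 0.24, 0.05, 0.79, 0.34 and 0.06, and their mean of 0.29 ± 0.30 (SD, n = 5) became 0.17 without mouse 3. In both genes mouse 3 was farthest from 0. Mrpl2, whose bacterial relative lies beside the peptidyl transferase centre, had the fourth smallest p in the class. It gave -0.19, -0.19, 0.00, -0.03 and -0.28, with a mean of -0.14 ± 0.12 (SD, n = 5).

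In the small subunit the median over 20 tested genes was 0.04 (13 positive, 7 negative). Mrps27, a pentatricopeptide repeat protein, read 0.22, 0.23, -0.32, 0.35 and 1.36 on the arrays with the mutant in Cy5 and 0.52, 0.28, 0.33, 0.37 and -0.64 on those with it in Cy3. The arrays of mice 1, 2 and 4 had the same sign within each mouse, and those of mice 3 and 5 had opposite signs. The pair means of 0.37, 0.25, 0.01, 0.36 and 0.36 gave a mean of 0.27 ± 0.15 (SD, n = 5; adjusted p 0.918 by limma). Mrps22, a subunit without a bacterial counterpart, was negative on 4 of 5 arrays with the mutant in Cy5 (-0.18, -0.02, 0.34, -0.23 and -0.38). It was positive on all 5 with the mutant in Cy3 (0.23, 0.46, 0.59, 0.56 and 0.95). Its pair means of 0.02, 0.22, 0.46, 0.16 and 0.29 gave 0.23 ± 0.16 (SD, n = 5). In both genes the pair mean was positive in 5 of 5 mice.

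Mrps5, a relative of the bacterial S5 protein that affects decoding accuracy, had both arrays in 4 mice, with pair means of 0.24, 0.26, 0.07 and 0.77. Their mean of 0.34 ± 0.30 (SD, n = 4) became 0.19 without mouse 5. Mrps15, a relative of bacterial S15, which binds the ribosomal RNA of the small subunit, had its value set by mouse 5. Its pair means were -0.01, -0.24, -0.35, -0.14 and -1.70, with a mean of -0.48 ± 0.69 (SD, n = 5), and without mouse 5 the mean was -0.18. The array of mouse 5 with the mutant in Cy5 read -3.15 at this probe and the other array of that mouse -0.25.

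Among 15 tested import genes the median was -0.04 (7 positive, 8 negative). All 4 tested Tomm genes had negative pair means and all had adjusted p values of 0.918 by limma, a grouping made after the values were seen. Tomm34, a cytosolic co-chaperone that binds Hsp70 and Hsp90, had pair means of 0.28, -0.64, -0.38, -0.30 and -0.87, with a mean of -0.38 ± 0.43 (SD, n = 5). Mouse 1 alone was positive. Tomm70a, the receptor for precursors with internal signals such as carriers, had pair means of -0.06, -0.02, -0.34, -0.15 and -0.15. All 5 mice were negative, the mean was -0.14 ± 0.12 (SD, n = 5), and without mouse 3 it was -0.09. The small TOM subunits Tomm6 and Tomm7, which help to keep the complex together, gave -0.16 ± 0.15 and -0.12 ± 0.10 (SD, n = 5 each).

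For the presequence route, Timm50, the receptor of TIM23 that faces the space between the membranes, had pair means of 0.34, 0.20, 0.08, 0.75 and -0.18. The mean was 0.24 ± 0.34 (SD, n = 5), and without mouse 4 it was 0.11. The TIM23 core subunits Timm17a and Timm17b are paralogues whose transcripts a probe may not tell apart. They gave 0.11 ± 0.59 (SD, n = 5) and 0.09 ± 0.62 (SD, n = 4), and neither kept its sign with each mouse left out. Timm17a gave -0.11 without mouse 3 and 0.30 without mouse 5, and Timm17b gave -0.20 without mouse 5 and 0.28 without mouse 2. Timm44, which tethers the import motor to the channel, was among the tightest members, at -0.04 ± 0.086 (SD, n = 5) with a 95% interval from -0.24 to 0.16. This is an average of 2 probes with SDs over mice of 0.053 and 0.16. With each mouse left out Timm44 ranged from -0.07, without mouse 3, to -0.02, without mouse 5.

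For the carrier route, the small chaperones scattered around 0. Timm13 had the smallest spread of the gene-level values, at 0.03 ± 0.076 (SD, n = 5), and its 95% interval ran from -0.17 to 0.22. This is an average of 2 probes, whose own SDs over mice were larger, at 0.14 and 0.27. Timm13 gave 0.05 without mouse 3 and -0.00025 without mouse 5. Timm8a1, the homologue of the gene mutated in human deafness-dystonia syndrome, gave -0.06 ± 0.18, Timm8b 0.17 ± 0.26 and Timm10 0.09 ± 0.60 (SD, n = 5 each), and Timm9 gave 0.32 ± 0.49 (SD, n = 4). Without mouse 1, Timm8b gave 0.07 and Timm9 gave 0.11, and Timm9 gave 0.49 without mouse 4. Timm10 ranged from -0.13, without mouse 4, to 0.26, without mouse 3, and Timm8a1 from -0.11, without mouse 2, to 0.005, without mouse 4. The TIM22 channel protein Timm22 gave -0.08 ± 0.35 (SD, n = 5), and its metazoan partner Timm29 gave -0.18 ± 0.25 (SD, n = 4). Timm22 was 0.05 without mouse 3 and -0.19 without mouse 5, and Timm29 was -0.10 without mouse 4 and -0.12 without mouse 5. Timm10b was on the array without enough values to be tested.

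Set side by side, no order of the 3 classes held in all 5 mice. The median pair mean of the large subunit was -0.06, 0.03, 0.05, -0.06 and 0.03 in mice 1 to 5. For the small subunit it was -0.02, 0.08, 0.10, 0.003 and -0.04, and for the import genes 0.05, 0.01, -0.07, -0.12 and -0.15. The import median was the highest of the 3 in mouse 1 and the lowest in mice 2 to 5. Each class took both signs, and the class medians differed from each other by less than the range of either over mice.

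**Figure D3:**
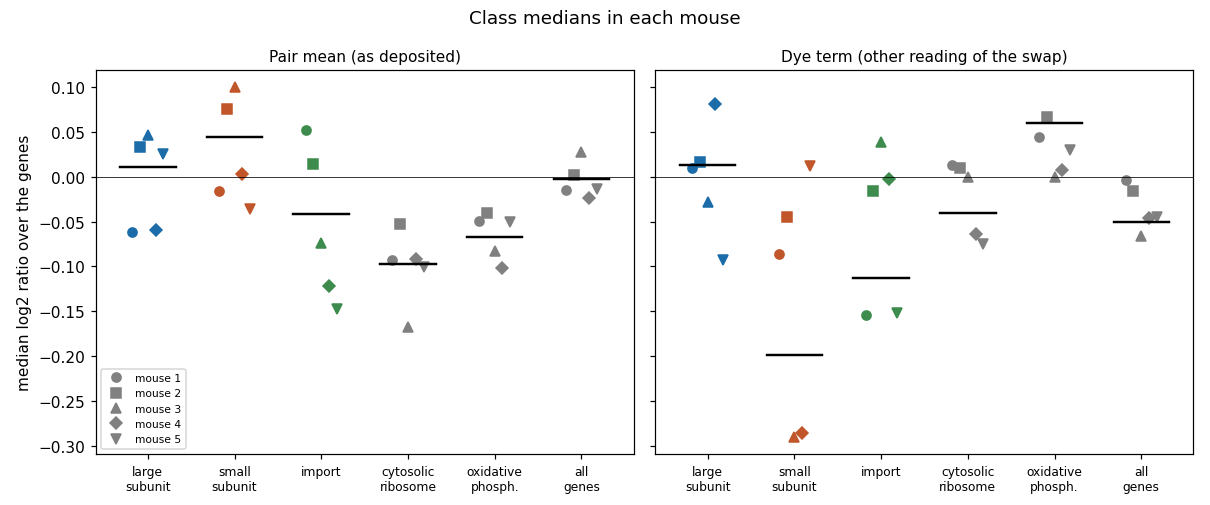
Median log2 ratio over the genes of a class in each of the 5 mice, for the pair mean (left) and the dye term (right), with cytosolic ribosomal proteins, oxidative phosphorylation genes and all tested genes for comparison. The black line is the median over genes of the mean over mice. The pair means of the 3 member classes cross 0, while the small subunit reaches -0.29 by the dye term in mouse 3.

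Neighbouring gene groups were measured on the same arrays. Of 51 cytosolic ribosomal protein genes, 9 had a positive pair mean and 42 a negative one, with a median of -0.10. Of 74 oxidative phosphorylation genes, many of which encode partners of the proteins made by mitochondrial ribosomes, the median was -0.07, with 23 positive and 51 negative. Mitochondrial translation factors and ribosome assembly genes were 14 positive and 10 negative of 24, with a median of 0.03. Import partners outside the Timm and Tomm names, such as the chaperone Hspa9 and the processing peptidase subunits Pmpca and Pmpcb, were 12 positive and 7 negative of 19, with a median of 0.02. Mitochondrial ribosome proteins with other names were 2 positive and 1 negative of 3. These skews belong to the pair mean. By the dye term, cytosolic ribosomal proteins were 22 positive and 29 negative (median -0.04) and oxidative phosphorylation genes 41 and 33 (0.06). Translation factors and assembly genes were 7 and 17 (-0.19), import partners 10 and 9 (0.06) and the ribosome proteins with other names 2 and 1 (0.35). No gene of these lists had an adjusted p below 0.05 by limma, and the difference between any of these lists and the members was not tested.

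Markers of other cell types gave these medians of the pair mean beside the members: neurons -0.06 (2 positive of 6), oligodendrocytes 0.02 (3 of 5), astrocytes -0.07 (0 of 4) and microglia -0.14 (1 of 4). Choroid plexus markers gave -0.32 (0 of 3), red blood cell markers 0.03 (2 of 3) and kidney markers 0.20 (4 of 6). By the dye term the medians were -0.18 for neurons (2 of 6), -0.18 for oligodendrocytes (2 of 5), -0.12 for astrocytes (2 of 4) and -0.16 for microglia (1 of 4). They were -0.06 for choroid plexus (1 of 3), 0.03 for red blood cells (2 of 3) and -0.07 for kidney (3 of 6). Fewer cells of a type and less RNA per cell cannot be told apart in RNA of a mixed tissue. The part of cell composition in the member values was not tested.

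The dye term of the members had the same sign over mice more often than the pair mean did, and this held over the whole array too. By limma, 0 of 74 members and 0% of all genes had an adjusted p below 0.05, and the smallest adjusted p of a member was 0.102. At an unadjusted p below 0.05 there were 20 members (27%), against 26.2% of all genes. The same sign in all 5 mice was seen for 20 of 63 members (31.7%), against 28.3% of all genes. These 20 were 6 positive and 14 negative, where all genes had 11.6% positive and 16.7% negative. The shares of members lay close to those of all genes.

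By class the signs of the dye term were as follows, with no test of a difference between classes. The small subunit had 8 positive and 12 negative genes with a median of -0.20, and the import genes had 5 and 10 with a median of -0.11. The large subunit had 21 and 18 with a median of 0.01, and the median over all genes was -0.05 (44.4% positive, 55.6% negative). In the small subunit, 10 of 19 genes had the same sign in all 5 mice (52.6%), of which 8 were negative and 2 positive. The same sign was seen for 6 of 32 (18.8%) in the large subunit and 4 of 12 (33.3%) among the import genes. Over all genes the share was 28.3%, with 16.7% negative and 11.6% positive. The small-subunit median in mice 1 to 5 was -0.09, -0.04, -0.29, -0.29 and 0.01, so it was near 0 in mouse 5. The negative genes with the same sign in every mouse included Mrps10, Mrps15, Mrps22 and Mrps25. Mrps10 gave -0.32 ± 0.24, Mrps15 -0.56 ± 0.53, Mrps22 -0.33 ± 0.21 and Mrps25 -0.19 ± 0.11 (SD, n = 5 each), and Mrps15 gave -0.34 without mouse 5.

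Single genes, named for a small p of the dye term in their class, showed the flip between orientations plainly. Mrpl36, a small zinc-binding protein with a bacterial counterpart, read 0.22, 0.85, 0.71, 0.78 and 0.95 with the mutant in Cy5 and -0.73, -0.56, 0.48, -1.04 and -0.92 with it in Cy3. The 2 sets do not overlap except through the array of mouse 3 that stood apart, which read 0.48. Its dye term was 0.63 ± 0.34 (SD, n = 5; adjusted p 0.103 by limma), and its pair mean was 0.07 ± 0.33, which became -0.06 without mouse 3. Mrps16, a relative of bacterial S16, read 0.35, 0.46, 0.89, 0.58 and 0.60 with the mutant in Cy5. With the mutant in Cy3 it read -0.49, -0.36, 0.58, -0.50 and -0.70. Mouse 3 was again the exception in the second set, and the dye term was 0.44 ± 0.19 (SD, n = 5; adjusted p 0.105 by limma).

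At its tested probe Tomm7 had the smallest spread of these, and its sets did not overlap. It read -0.11, -0.42, -0.30, -0.36 and -0.61 with the mutant in Cy5, and 0.14, 0.12, 0.16, 0.09 and 0.08 with it in Cy3, mouse 3 included. Its dye term was -0.24 ± 0.079 (SD, n = 5; adjusted p 0.159 by limma). Another probe of Tomm7, with too few values for a test, ran mostly the other way. It read -1.27, 1.39, 4.13 and 1.10 with the mutant in Cy5 and -0.13, -1.27 and -0.35 with it in Cy3. A further untested probe read -0.67 and 0.16 with the mutant in Cy5 and -1.56, 2.40 and -1.26 with it in Cy3. Mrpl55, a large-subunit protein, had a dye term of 0.82 ± 0.37 and Timm29 one of 0.66 ± 0.26 (SD, n = 4 each; adjusted p 0.102 for both by limma). Mrps17, a relative of bacterial S17, had one of 0.37 ± 0.16 (SD, n = 5).

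A fit of all 10 arrays with a dye covariate, in which the mouse was a random block, called 10.3% of all genes for the dye coefficient and 6 of 74 members (8.11%). The within-mouse correlation was -0.02, so this fit treats the 10 arrays as nearly separate samples and overstates the number of replicates. The members called were Mrpl3, Mrpl36, Mrpl55 and Mrps17 with positive coefficients of 0.52, 0.63, 0.74 and 0.37, and Mrpl18 and Mrpl20 with -0.43 and -0.37. Over all genes 6.06% were called with a positive and 4.28% with a negative coefficient. Without the array of mouse 3 that stood apart, chosen after the values were seen, 22.4% of genes and 12 members (16.2%) were called, 9 positive (13.5% of all genes) and 3 negative (8.86% of all genes). The within-mouse correlation in that fit was -0.07, so it also overstates the number of replicates. In both fits the share of members lay below that of all genes. By the dye term of each mouse it lay slightly above, at 27% against 26.2% with an unadjusted p below 0.05 by limma. No difference in these shares was tested.

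The 17 member genes with 2 tested probes show how far a gene's value depends on the probe. By the pair mean, both probes had the same sign in 12 genes (70.6%), with Spearman's rho of 0.57 across genes, against 892 of 1764 such genes on the array (50.6%, rho -0.002). The probes share the same arrays, genes are not independent replicates, and no p is given. Mrps25 gave -0.08 and -0.25, Mrpl37 0.03 and 0.10, Mrps23 -0.20 and -0.24 and Mrps10 -0.03 and -0.18. Mrpl4 gave opposite signs, at 0.18 and -0.12, as did Mrps6, at 0.38 and -0.02.

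By the dye term the probes of a gene had the same sign in 8 genes and opposite signs in 9, with rho of -0.34. Over the array 877 genes had the same sign and 887 opposite signs (49.7% the same, rho -0.016). So by either measure, probes of a gene on the array shared a sign about as often as not. Opposite pairs among the members included Mrpl34 at -0.31 and 0.57, Mrpl21 at 0.45 and -0.38 and Mrpl48 at 0.42 and -0.24. Timm13 at -0.35 and 0.28 and Timm22 at 0.37 and -0.17 were others. Averaging such probes leaves a gene-level dye term near 0, as in Timm13, with -0.03. Agreeing pairs included Mrps10 at -0.30 and -0.34, Mrpl49 at 0.12 and 0.38 and Timm44 at -0.23 and -0.05. Mrpl17 had 3 tested probes, with dye terms of -0.05, -0.28 and 0.32. The sequences of the probes were not analysed here, so a name could not be checked against its transcript.

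**Figure D4:**
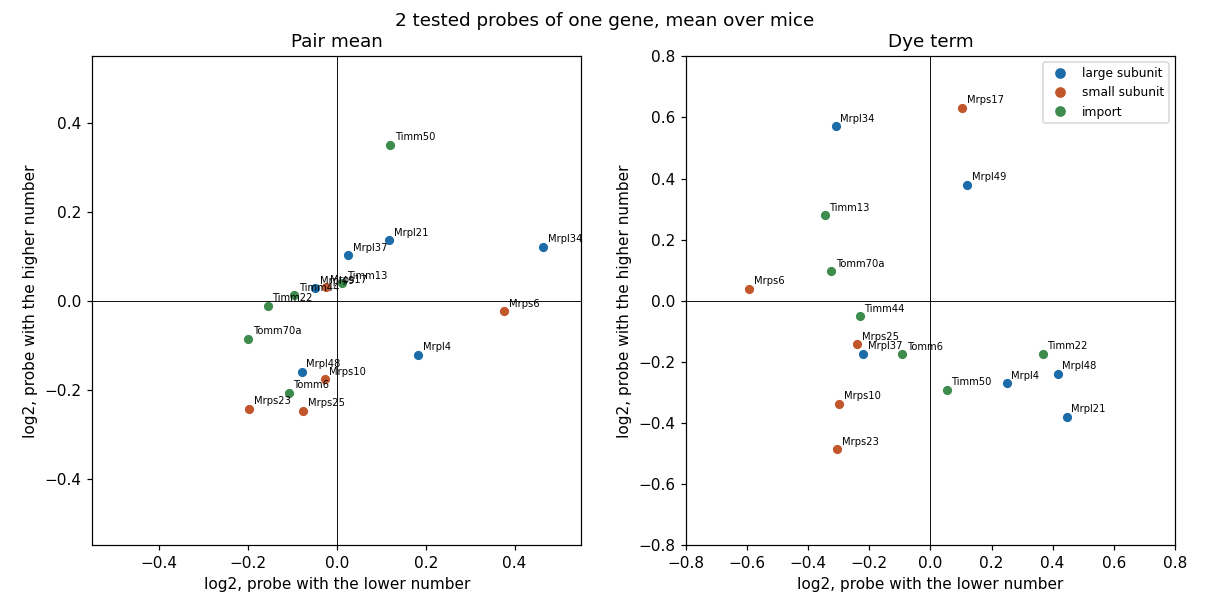
Mean over mice of the pair mean (left) and of the dye term (right) for the 17 member genes with 2 tested probes, in log2 units, with the lower-numbered probe on the horizontal axis. The axes of the panels differ in range. Points whose coordinates share a sign number 12 genes for the pair mean and 8 for the dye term.

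Members were also grouped by promoter letters. The 26 tested members with the ETS letters had a median pair mean of 0.05 and the 41 without them one of -0.002. The 15 with the NRF1 letters had 0.03 and the 52 without them 0.01. The 8 with the YY1 letters had 0.14, with 6 positive, and the 59 without them had -0.002. By the dye term the medians with and without the letters were 0.01 and -0.05 for ETS and -0.15 and -0.01 for NRF1. For YY1 they were 0.12 and -0.05. These are descriptions of small groups with no test.

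The rest of the members were not measured well enough for a test. Mrpl11, Mrps7, Mrps12, Mrps24, Mrps35 and Timm10b had both arrays in fewer than 4 mice. Each array repeated a single largest size of value, between 16.437 and 17.64, always positive with the mutant in Cy5 and always negative with it in Cy3. There were 8 such values at 7 member probes. They touched 2 tested genes, Mrpl9, a homologue of bacterial L9, and Mrpl12, the stalk protein that binds translation factors. Both were singled out after their values were seen. Mrpl9 had a mean of 2.72 over 4 mice with this value and 0.49 over 3 mice without it. Mrpl12 had -1.27 over 5 mice with it and 0.30 over 4 without it. Both means rested on mouse 3.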

How the data were processed

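Total RNA of 5 Cin85-/- mice, from brain by the titles, was labelled with Cy3 or Cy5 and hybridised against a wildtype pool, per the labels' protocols. The authors deposited log2 ratios for 20355 probes on 10 arrays. How arrays were scanned, background-corrected and normalized is not stated in the sources used here. Intensities were not analysed, so precision rests on the number of arrays.

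Names came from GEO's platform annotation, and all 80 member Entrez identifiers were found in RefSeq with 0 symbols changed. Each array was centred on its median, and the 2 arrays of a mouse were combined so that the mouse was the replicate. limma 3.58.1 in R 4.3.3 (lmFit, eBayes) tested pair means and dye terms against 0, with p-values adjusted by Benjamini-Hochberg over all probes or genes tested. Scripts were tested on simulated data. Where nothing says otherwise, n counts mice, and p-values measure their spread around a single pool.

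The text names, in each class, the 4 genes with the smallest unadjusted p for the pair mean and the 2 for the dye term, every member with at least 2 tested probes, and the small Timm and core import subunits. Other members are named in counts or calls. Members, lists and this rule were chosen with earlier results of these data known. Alternatives covered centring, scaling, dye orientation, the block, missing values, extreme values, probe choice and each mouse left out.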

Additional observations from a re-analysis of the deposited data

Results flagged for a closer look

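A single mouse far from the others was looked for in the pair mean and the dye term of the 74 tested genes and in 8 class medians, 156 results in all, of which 16 met Dixon's criterion. Chance gives about 1 in 20 such results. Of the 16, 8 were for mouse 3, whose array with the mutant in Cy3 stood apart, and 4 were for mouse 5. The part of that array in these values was not tested.

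For the pair mean, mouse 3 was far from the others at Mrpl9 (9.39), Mrpl12 (-7.55), Mrpl15 (0.74) and Mrps16 (0.73). The values of Mrpl9 and Mrpl12 hold the repeated largest value of an array. Without mouse 3, the mean of Mrps16 was -0.01 in place of 0.14. Mouse 5 was far at Mrps15 (-1.70) and Mrps34 (-3.36), and mouse 4 at Mrpl23 (1.18).

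For the dye term, mouse 3 was far at Mrpl9 (7.45), Mrpl42 (0.92), Mrpl15 (-0.13) and Tomm6 (-0.49). Mouse 5 was far at Mrpl14 (-1.67) and Mrps27 (1.001), mouse 4 at Mrpl23 (1.91), mouse 2 at Mrpl20 (-0.17) and mouse 1 at Mrpl45 (-0.026).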

How the results depend on the processing

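By the pair mean, 0 genes and 0 members were called under every alternative and without each mouse (0 to 0), by limma. The same held in the Cy5 over Cy3 reading by mouse and with arrays of a single orientation. In these settings the smallest adjusted p of a member was 0.0699 to 0.947 by limma. The lowest came with only the arrays with the mutant in Cy5 and the highest without mouse 5. That count leaves out the dye coefficient of the block fits. In the Cy5 over Cy3 reading this coefficient also compares mutant with pool. It called 901 genes and 6 members on 10 arrays, and 1949 genes and 12 members on 9. Both fits overstate the number of replicates, as described above, and the array left out of the second was chosen after the values were seen. The dye term called 0 genes, 127 genes (0 of them members) after arrays were scaled to a common spread, and 0 to 1 genes with each mouse left out. The median pair mean of all members was 0.023 as reported, -0.033 if every column is Cy5 over Cy3, and -0.014 with only the mutant in Cy5. For the small subunit it was -0.20 in the Cy5 over Cy3 reading, -0.10 with only Cy5 and 0.15 with only Cy3, and for the import genes 0.055 with only Cy3. With each mouse left out the medians ranged from -0.016 to 0.022 for all members, -0.03 to 0.03 for the large subunit, -0.004 to 0.10 for the small subunit and -0.07 to -0.02 for the import genes. The sign of the median of all members turned without mouse 3 and without mouse 5. The causes were not tested. Of the 37 named genes, 37 kept the sign of the pair mean without centring, after scaling, with extreme values missing and with the mouse as a block on 10 arrays. In the Cy5 over Cy3 reading 18 kept it, with only Cy5 28, with only Cy3 25, with the most complete probe 36, and with 1 mouse left out 30 to 36. The fit on 9 arrays, added after the data were seen, kept 32.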
